A study of Mus musculus with 6 samples.

Results

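The 6 genes that encode the chains of type IV collagen, Col4a1 to Col4a6, were described in RNAseq counts of immortalized mouse pancreatic fibroblasts. They were chosen by symbol, as the genes of the count table whose symbol is 1 of these 6, and the family was taken up with earlier results of these data known. They are 6 of the 14831 genes listed, and all 6 had enough counts to be tested.

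The study asked how the transcription factors GLI2 and GLI3, effectors of hedgehog (HH) signaling, shape what pancreatic fibroblasts express, and the comparison here was labelled KO against labelled WT. Wells of confluent cells, kept in DMEM with calf serum, gave 1 library each, 3 with the genotype label WT and 3 with the label Gli2/Gli3 KO. Per the methods of the study, such lines grew out of the adult pancreas of mice with floxed Gli alleles on a mixed background and were immortalized. All lines then received an adenovirus with eGFP under the CMV promoter, control lines also a dsRed lentivirus and KO lines also an adenovirus with Cre under the CMV promoter, and infected cells were sorted by flow cytometry and checked for recombination by qPCR and western blot. The floxed alleles and the eGFP adenovirus were thus shared by both groups, while the lentivirus and the Cre adenovirus each went to 1 group, so that vector and genotype cannot be told apart. The labels name wells of cultured lines and no animals, so p-values measure the spread between wells, which may be technical. How many separate lines stand behind the wells is not given in the sources used here, and a difference between lines and a difference between genotypes cannot be told apart.

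Type IV collagen is the collagen of basement membranes, where it forms a sheet-like network rather than fibrils. Its chains assemble inside the cell into trimers of fixed composition. The chains of Col4a1 and Col4a2 form the trimer found in nearly all basement membranes, those of Col4a3, Col4a4 and Col4a5 form the trimer of the kidney glomerulus, cochlea and lung alveolus, and those of Col4a5 and Col4a6 form a trimer known from smooth muscle and some epithelia. The genes lie in head-to-head pairs, so that both members of a pair start close together and are read in opposite directions.

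Total counts per library were between 31728420 and 41035931. Gli2 had 809, 944 and 868 counts in WT-labelled libraries and 1932, 2316 and 1926 in KO-labelled libraries, and Gli3 had 392, 416 and 398 against 1434, 1637 and 1404, so the counts of both targeted genes go against the labels. These are counts over whole genes, which include exons outside any deleted part. The HH target genes went the other way. Ptch1 had 7046, 7912 and 7834 counts against 2732, 3416 and 2851, Gli1 had 40, 50 and 37 against 4, 10 and 13, and Hhip had 39, 42 and 44 against 0 in each. Every direction below rests on the labels. Of 10 fibroblast markers 9 were listed, with a summed level of 44824 to 47238 CPM (counts scaled to library size) in WT-labelled libraries and 36791 to 38540 in KO-labelled libraries. Pdpn was not among the listed genes.

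Across the 6 chain genes, Col4a3, Col4a4 and Col4a6 were higher in KO-labelled libraries and Col4a1, Col4a2 and Col4a5 were not called different. A gene was called at an adjusted p under 0.05 (edgeR's quasi-likelihood test, Benjamini-Hochberg adjustment over all 14289 genes tested) with a change of at least 1.5-fold. By this rule 3 of 6 chain genes were called, all higher, where 17.7% of all genes tested were called in either direction, 11.6% higher and 6.1% lower. Without the fold limit, 58.7% of all genes passed (29.9% higher and 28.8% lower) and the same 3 chain genes did. Col4a3 and Col4a4 had 1 to 6 counts in each WT-labelled library and passed the count filter only through KO-labelled libraries. They could therefore not have been called lower. With at least 10 counts in every library, neither could be tested and 1 chain gene was called. The groups did not overlap for 4 of the 6 chain genes, with 3 higher and 1 lower, where this was so for 64.2% of all genes tested. In such bulk samples, more cells that express a gene and more RNA of it per cell cannot be told apart.

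**Figure D1:**
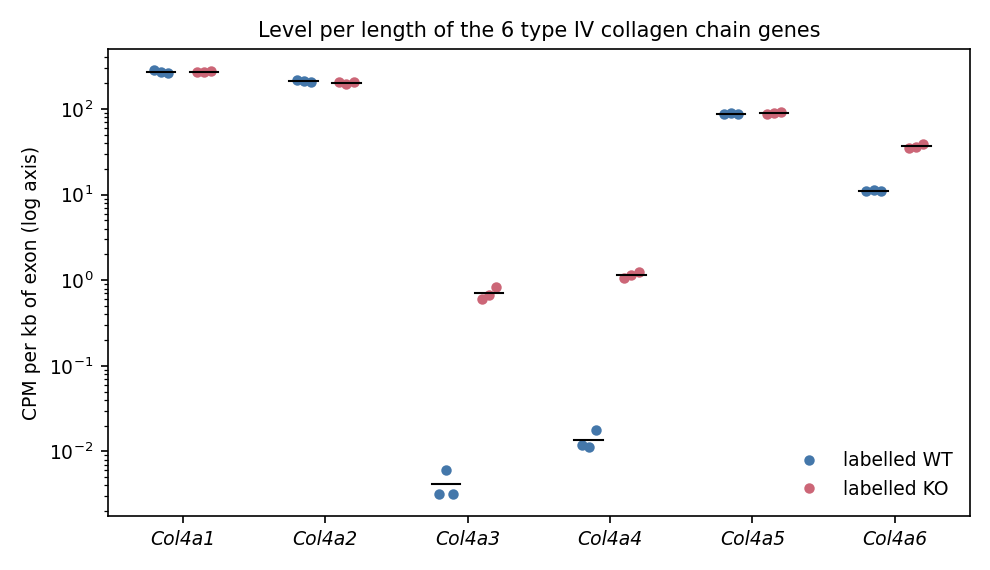
Level of each chain gene in each library, as CPM per kb of exon on a log axis, with libraries labelled WT in blue, KO-labelled libraries in red and a line at each group mean. Col4a1, Col4a2 and Col4a5 sit at about the same height in both groups, Col4a6 moves from 11.1 to 36.6, and Col4a3 and Col4a4 move from under 0.02 to 0.702 and 1.15.

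The most widespread chains came first in level. Col4a1 (chromosome 8 from 11198423 to 11312826, minus strand, in GENCODE M21 on GRCm38, the annotation behind all gene positions here) had 66015, 67218 and 63293 counts in WT-labelled libraries and 71985, 83404 and 68124 in KO-labelled libraries. Scaled to library size, these were 2032 ± 65.6 and 2033 ± 31.1 CPM (SD, n = 3 each). The groups overlapped, with a log2 fold change of 0.00 and a 95% interval from -0.06 to 0.07 (adjusted p 0.991, edgeR's quasi-likelihood test), so that a change beyond 0.956-fold to 1.05-fold lies outside the interval.

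Col4a2 (chromosome 8 from 11312805 to 11449287, plus strand), the partner of Col4a1, had 1446, 1401 and 1370 CPM in WT-labelled libraries and 1359, 1311 and 1362 in KO-labelled libraries. Each library labelled KO was thus below each labelled WT, as was so for 31.3% of all genes tested. The fitted change was -0.06 on the log2 scale (SE 0.03, adjusted p 0.0807, edgeR's quasi-likelihood test), with an interval from 0.914-fold to 1.00-fold. It had an adjusted p of 0.0491 when the WT-labelled library with replicate number 3 was left out, at a change of -0.09 that remained far under the fold limit.

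Col4a3 and Col4a4 encode the chains that, with that of Col4a5, make the trimer of the mature glomerulus. Col4a3 (chromosome 1 from 82586921 to 82722059, plus strand) had 1, 2 and 1 counts in WT-labelled libraries and 213, 280 and 273 in KO-labelled libraries, or 0.041 ± 0.0162 and 7.0 ± 1.15 CPM. In the first group it lay under the limit of 3 counts in every library (0.0896 to 0.0957 CPM), and the groups were far apart. Pooled over libraries, 4 counts stood against 766, a ratio of 168 with a 95% counting interval from 65.5 to 619. The fitted log2 fold change was 7.28 (SE 0.30, adjusted p 5.73e-10, edgeR's quasi-likelihood test), which at so few counts depends on the prior count.

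Col4a4 (chromosome 1 from 82448423 to 82586849, minus strand) moved with it. It had 4, 4 and 6 counts in WT-labelled libraries and 398, 512 and 435 in KO-labelled libraries, or 0.145 ± 0.0374 and 12.2 ± 0.97 CPM. Pooled over libraries, 14 counts stood against 1345, a ratio of 84.4 with a 95% counting interval from 50.1 to 155. The fitted log2 fold change was 6.37 (SE 0.17, adjusted p 1.28e-11, edgeR's quasi-likelihood test), and 0.371% of all genes tested were called with a change as high or higher. Counting intervals cover counting error only.

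Part of the exon sequence of Col4a3, 563 bases or 5.65%, is shared with C430014B12Rik on the opposite strand, and whether the counting used strand is not given in the sources used here. C430014B12Rik had 9, 12 and 10 counts against 24, 21 and 19, which is a small number beside the Col4a3 counts of KO-labelled libraries. Col4a1 and Col4a2 share 22 exonic bases at their starts, or 0.295% of the exons of Col4a1.

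Col4a5 (chromosome X from 141475385 to 141689234, plus strand), whose chain enters both of the less widespread trimers, had 589, 597 and 595 CPM in WT-labelled libraries and 592, 598 and 616 in KO-labelled libraries. The groups overlapped, and the log2 fold change was 0.02 with a 95% interval from -0.04 to 0.08, or 0.972-fold to 1.06-fold (adjusted p 0.566, edgeR's quasi-likelihood test). Under upper-quartile scaling the adjusted p was 0.0309 at a change of 0.08, still under the fold limit.

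Col4a6 (chromosome X from 141165403 to 141474076, minus strand), whose chain joins that of Col4a5, had 2718, 3023 and 2817 counts in WT-labelled libraries and 9821, 11874 and 10341 in KO-labelled libraries. These were 88.4 ± 1.77 and 291.9 ± 18.9 CPM, with every library labelled KO above every library labelled WT, as for 32.9% of all genes tested. Its change was 3.30-fold with a 95% interval from 3.09 to 3.53 (log2 fold change 1.72, SE 0.04, adjusted p 6.59e-12, edgeR's quasi-likelihood test). Of all genes tested, 537 or 3.76% were called with a change as high or higher, so the move of Col4a6 was in the upper tail of changes but not at its end. The plot of fitted changes shows the 3 chain genes that were called apart from the 3 that were not.

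**Figure D2:**
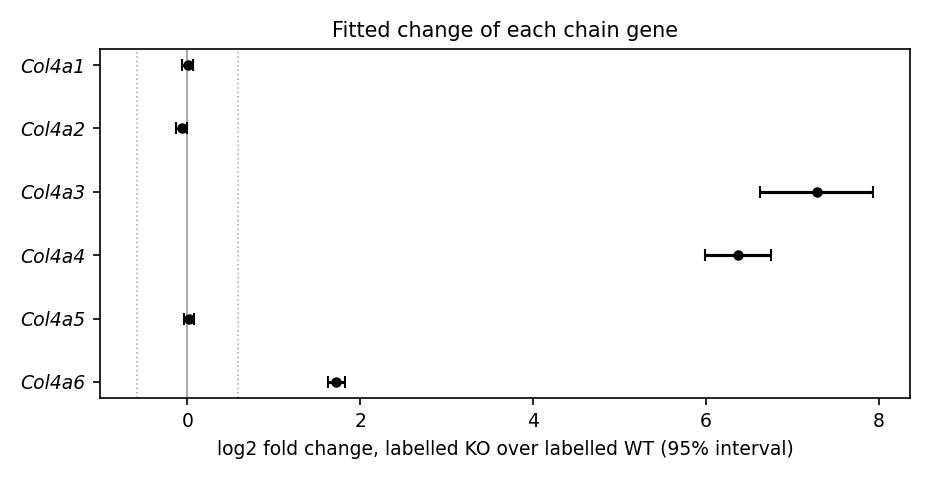
Fitted log2 fold change of each chain gene, labelled KO over labelled WT, with its 95% interval as a bar and dotted lines at a 1.5-fold change. The intervals of Col4a1, Col4a2 and Col4a5 lie between the dotted lines, and those of Col4a3, Col4a4 and Col4a6 lie to the right of them.

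Levels of different genes were compared as CPM per kb of exon, since longer transcripts give more reads. On this scale the order was the same in both groups: Col4a1, Col4a2, Col4a5, Col4a6, Col4a4, Col4a3. Neighbours in the order did not overlap over the libraries of a group, though Col4a4 and Col4a3 in WT-labelled libraries were separated by a few counts only. In those libraries Col4a1 was at 272 ± 8.79, Col4a2 at 212 ± 5.76, Col4a5 at 88.3 ± 0.611 and Col4a6 at 11.1 ± 0.222. In KO-labelled libraries Col4a6 was at 36.6 ± 2.37, Col4a4 at 1.15 ± 0.0914 and Col4a3 at 0.702 ± 0.116. By level per kb, Col4a1 ranked number 101 and Col4a2 number 151 of 14822 genes with a gene model in WT-labelled libraries. Col4a6 moved from rank 4377 to rank 1231 and Col4a4 from rank 14649 to rank 10932, so that Col4a4 and Col4a3 were still among the less expressed genes, with 26.2% and 20.8% of genes below them.

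As a share of the summed level of the 6 genes, the chains of the common trimer held slightly less in KO-labelled libraries. Col4a1 made up 46.6% ± 0.429 (SD, n = 3) in WT-labelled libraries and 45.1% ± 0.172 in KO-labelled libraries. Col4a2 made up 36.4% ± 0.162 and 33.6% ± 0.386, and Col4a6 1.90% ± 0.0734 and 6.06% ± 0.306. The summed level itself was 584 ± 13.8 and 603 ± 11.3 CPM per kb. Col4a3 and Col4a4 together held a very small share even where they were high, with 0.116% and 0.191% of the summed level in KO-labelled libraries. Beside Col4a5, the chain they join in a trimer, Col4a3 stood at 0.783% ± 0.112 and Col4a4 at 1.29% ± 0.0771 of its level in those libraries, from 0.00465% and 0.0155% in WT-labelled libraries. Beside Col4a1 the groups overlapped for Col4a5, at 32.5% ± 1.24 of its level in WT-labelled libraries and 32.9% ± 0.478 in KO-labelled libraries.

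The head-to-head pairs differed in how their members moved, which was read from the ratio of both genes within each library, a measure that needs no scaling between libraries. The starts lie 21 bases apart for Col4a1 and Col4a2, 72 for Col4a3 and Col4a4 and 1309 for Col4a5 and Col4a6. Each of the 3 pair ratios was compared by an exact two-sided permutation test, which with 3 libraries against 3 cannot give a p below 0.1.

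For Col4a6 over Col4a5 the ratio of levels per kb was 0.124, 0.127 and 0.125 in WT-labelled libraries and 0.395, 0.402 and 0.429 in KO-labelled libraries. The groups lay far apart, with a 3.25-fold change of the ratio (exact permutation p 0.1, adjusted p 0.1), which is nearly the change of Col4a6 alone. For Col4a1 over Col4a2 the ratio was 1.29, 1.27 and 1.28 against 1.33, 1.35 and 1.34, a rise of 4.64% with no overlap (exact permutation p 0.1, adjusted p 0.1). This shift was larger than the spread between wells, and it was small.

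The ratio of Col4a3 to Col4a4 was poorly determined in WT-labelled libraries, at 0.266, 0.532 and 0.177 against 0.570, 0.582 and 0.668. Col4a3 had 4 of the 18 reads of the pair there, or 22.2% with an exact (Clopper-Pearson) 95% interval from 6.41% to 47.6%. In KO-labelled libraries it had 766 of 2111, or 36.3% (34.2% to 38.4%), which is inside the first interval, so a difference in the ratio was not detectable at this depth. The log2 difference of 1.05 (exact permutation p 0.1, adjusted p 0.1) became 1.48 without the WT-labelled library of replicate number 2 and 0.69 without that of replicate number 3, and 0.70 (exact permutation p 0.3) with 0.5 added to each count.

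**Figure D3:**
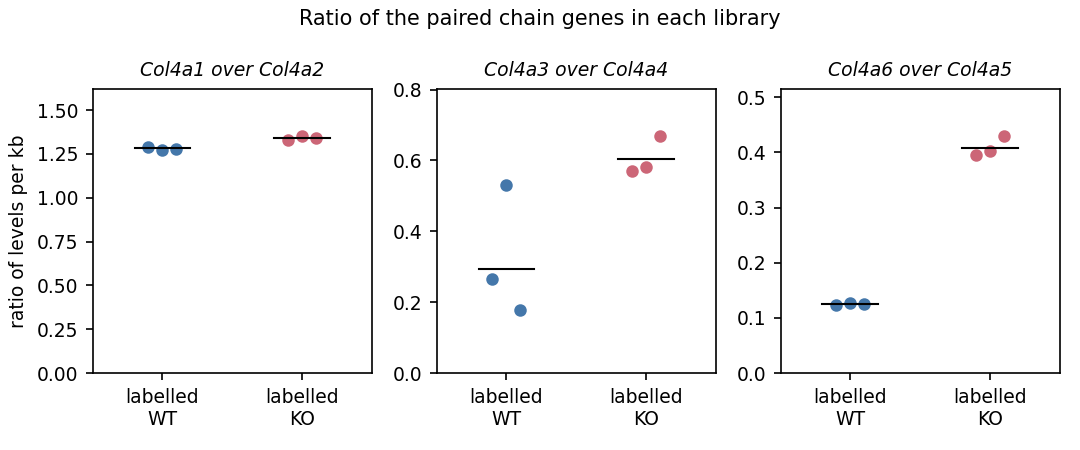
Ratio of the levels per kb of both genes of each head-to-head pair, 1 point per library, with a line at the mean (taken on the log scale) and axes from 0. Col4a6 over Col4a5 moves from about 0.125 to between 0.395 and 0.429, Col4a1 over Col4a2 moves by 4.64%, and Col4a3 over Col4a4 is spread from 0.177 to 0.532 in WT-labelled libraries.

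The promoters are shown for the pair on chromosome X, whose members moved differently, and for Col4a4, which moved most among the genes with a promoter here. Each window runs from 250 bases before the start to 50 after it, 5′ to 3′ on the strand of the gene, from RefSeq on GRCm38.p6, with 5 of the 6 chain genes matched by symbol. Capitals mark a GC box (GGGCGG, the letters bound by SP1-type factors) or a CCAAT box (CCAAT), on either strand. The Col4a4 window is chr1:82586800-82587099 on the minus strand, the Col4a6 window chrX:141474027-141474326 on the minus strand and the Col4a5 window chrX:141475169-141475468 on the plus strand.
Col4a4: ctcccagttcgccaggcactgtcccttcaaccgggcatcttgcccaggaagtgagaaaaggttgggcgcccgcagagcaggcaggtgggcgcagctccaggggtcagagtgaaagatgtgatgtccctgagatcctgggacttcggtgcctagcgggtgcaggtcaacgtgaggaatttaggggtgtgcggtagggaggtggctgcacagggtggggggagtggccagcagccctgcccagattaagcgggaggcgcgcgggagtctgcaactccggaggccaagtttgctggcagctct
Col4a6: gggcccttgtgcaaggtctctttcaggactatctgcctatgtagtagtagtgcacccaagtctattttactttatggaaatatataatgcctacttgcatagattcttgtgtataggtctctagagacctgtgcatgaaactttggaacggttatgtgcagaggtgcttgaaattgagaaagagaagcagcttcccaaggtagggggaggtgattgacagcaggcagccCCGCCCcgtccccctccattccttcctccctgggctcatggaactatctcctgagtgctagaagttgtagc
Col4a5: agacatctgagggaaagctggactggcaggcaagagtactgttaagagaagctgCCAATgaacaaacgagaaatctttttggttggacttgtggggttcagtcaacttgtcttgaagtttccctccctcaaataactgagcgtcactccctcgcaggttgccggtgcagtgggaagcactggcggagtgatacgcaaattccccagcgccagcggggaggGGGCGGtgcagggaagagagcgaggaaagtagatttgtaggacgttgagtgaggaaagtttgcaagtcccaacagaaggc

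Col4a6 has 1 GC box, starting 21 bases before the gene's start, and no CCAAT box, while Col4a5 has 1 of each. Col4a4 has neither. Among all 32851 promoter windows of this length, 35.7% hold a GC box and 37.4% a CCAAT box. The windows of Col4a1 and Col4a2, which overlap, hold 1 and 3 GC boxes and 1 CCAAT box each. The letters of a GLI site (GACCACCCA) and its core (ACCACCC), searched on both strands, were in none of the 5 windows, and were in 0.253% and 4.61% of all windows. The letters TATAAA were also in none, against 13.6% of all windows. These matches are a description of letters, and the core lies inside the GLI site.

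Base composition differed between the 5 windows, with no window for Col4a3, whose start at position 82586921 lies inside the Col4a4 window. GC content was 74.0% for Col4a1 and 73.7% for Col4a2, above the 90th percentile of all windows (69.7%), with 37 and 33 CpG dinucleotides. For Col4a4 it was 63.3% with 14 CpG, for Col4a5 52.7% with 11 and for Col4a6 48.3% with 3, where the median window has 52.7% and 7. Of these 5 genes, the 3 with the fewest CpG included both that were higher in KO-labelled libraries, and Col4a5 as well. This was read with the changes known, and the Col4a1 and Col4a2 windows overlap. A link between base composition and the changes was not tested.

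Other genes that start within 500 kb of a chain gene were called no more often than the 17.7% of all genes tested. Around Col4a3 and Col4a4, 6 of 35 annotated genes were tested and 1 was called, the overlapping C430014B12Rik with a log2 fold change of 0.85 (SE 0.28, adjusted p 0.0178, edgeR's quasi-likelihood test). Irs1, an adaptor of insulin signaling 295 kb away, went from 68.2 ± 2.57 to 49.8 ± 3.33 CPM, a log2 change of -0.45 under the fold limit. Rhbdd1, Mff, Agfg1 and Gm28941 had log2 changes between -0.23 and 0.06. Around Col4a1 and Col4a2, 9 of 36 were tested and 1 was called, Irs2, the related adaptor 304 kb away, at 82.2 ± 1.61 and 130.4 ± 2.43 CPM (log2 fold change 0.67, SE 0.03, adjusted p 2.4e-09, edgeR's quasi-likelihood test). The remaining 8 lay between -0.42 and 0.15. Around Col4a5 and Col4a6, none of the 11 annotated genes was listed, so none was tested.

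**Figure D4:**
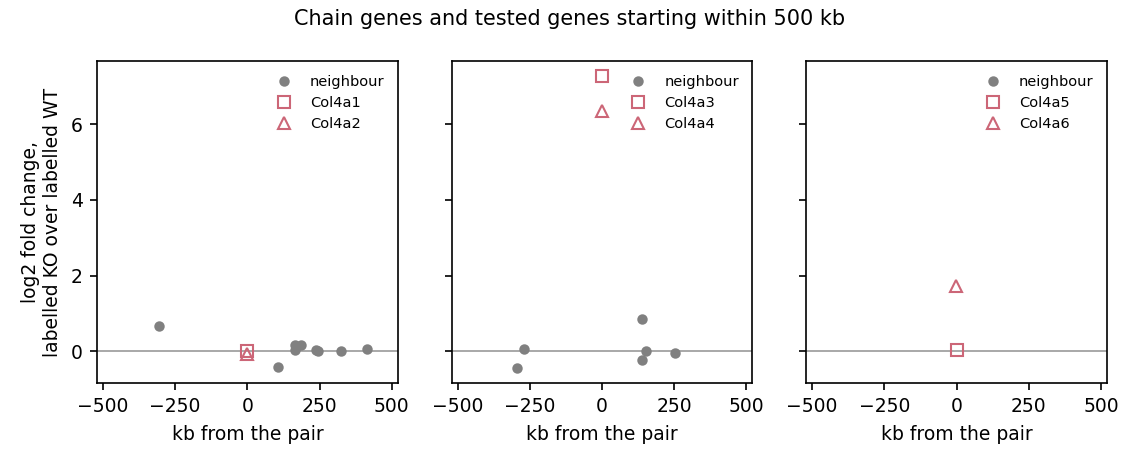
Log2 fold change of the chain genes (open red symbols) and of the tested genes that start within 500 kb of them (grey points), against distance from the middle of the pair in kb. The points near Col4a3 and Col4a4 lie between -0.45 and 0.85 while the pair is above 6, and no tested neighbour stands beside Col4a5 and Col4a6.

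The genes most like each chain gene were named by distance between profiles of log2 CPM (prior count 0.5, centred per gene) over the 6 libraries, among 14288 other tested genes. For Col4a6 these were Gli3 (distance 0.0932), Cemip (0.0936) and Fhdc1 (0.12). For Col4a4 they were H19 (0.271), Gng2 (0.445) and Hif3a (0.54), and for Col4a3 Gpm6a (0.67), Pkhd1l1 (0.714) and Zfp775 (0.857), where distances depend on the prior count because 1 group is near 0. Col4a4 was number 18 from Col4a3 and Col4a3 number 35 from Col4a4, while Col4a5 was number 6364 from its partner Col4a6. For Col4a1 the nearest were Inpp5b (0.013), Col5a2 (0.0193) and Mtfr1l (0.0324), for Col4a2 Samd14 (0.021), Aggf1 (0.029) and Recql5 (0.033), and for Col4a5 Taok2 (0.0183), R3hdm4 (0.025) and Gnptab (0.0273). With 3 libraries a group, the profile is mostly the difference between the groups, and a short distance says that this difference is alike.

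Mesothelial markers moved with the chain genes that were higher, and the epithelial and endothelial markers that were called were also higher. Fibroblast markers were called in both directions, and the other marker lists had none called. Mesothelial cells line the surface of abdominal organs and lie on a basement membrane. Of 6 mesothelial markers 5 were tested and all 5 were called higher in KO-labelled libraries, beside 11.6% of all genes tested. Their summed level was 22.6 to 25.6 CPM in WT-labelled libraries and 291 to 292.8 in KO-labelled libraries. Msln, a surface protein of mesothelium, was at 2.37 ± 0.394 and 165.7 ± 2.33 CPM, and Wt1, a transcription factor of mesothelium, at 1.61 ± 0.254 and 5.73 ± 0.406. Krt19 was not among the listed genes. Of 13 epithelial markers 4 were tested and 3 were called higher, Krt7, Cela1 and Cdh1, beside 11.6% of all genes tested. Sox9 was lower at 8.51 ± 0.104 and 6.03 ± 0.446 CPM, under the fold limit. The summed level was 20.2 to 22.7 and 44.0 to 45.5 CPM. Most of its rise was in Krt7 (4.38 and 23.1 CPM) and Cela1 (8.04 and 14.7 CPM). Epcam, Krt18 and Krt19 were not among the listed genes. The part of these cell types in the levels of Col4a3, Col4a4 and Col4a6 was not tested.

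The 3 of 10 endothelial markers listed summed to 2.12 to 3.67 and 4.03 to 4.46 CPM. All 3 were tested and 1 was called higher, Flt1, or 33.3% beside 11.6% of all genes tested. Most of the rise was in Flt1, at 0.855 ± 0.284 and 2.55 ± 0.239 CPM. Pecam1 and Cdh5 were not among the listed genes. The 2 of 7 leukocyte markers listed summed to 2.11 to 2.29 and 2.37 to 2.90 CPM with none called. Pericyte and smooth muscle markers (2 of 8) and Schwann cell markers (4 of 6) had none called, at 1817 to 1977 and 1868 to 1953 CPM, and at 55.5 to 55.8 and 41.6 to 42.4 CPM. Most of each sum was 1 gene, Acta2 (1893 and 1903 CPM) and Mbp (51.0 and 37.9 CPM). Mbp passed the p limit but not the fold limit. Rgs5, Myh11, Des, Sox10 and Foxd3 were not among the listed genes. Fibroblast markers moved more, since 4 of 8 tested were lower and 1 higher, or 62.5% beside 17.7% of all genes tested. Dcn, a collagen-binding proteoglycan, was lower at 2643 ± 116.7 and 904.7 ± 6.95 CPM, as were Col3a1, Pdgfra and Pdgfrb, and S100a4 was higher. Msln, Wt1, Krt7, Cela1, Cdh1, Sox9, Flt1, Acta2, Mbp and these fibroblast markers were named after their values were seen. Their part in the result was not tested either.

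Few genes of the machinery that builds collagen were called. Of 25 genes for assembly and modification, 24 were tested, 1 was higher and 1 lower, or 8.33% beside 17.7% of all genes tested, with a median log2 fold change of 0.08 beside 0.00 over all genes tested. Without the fold limit 15 passed, 11 higher and 4 lower, where 58.7% of all genes tested passed. Creb3l2, a transcription factor of the secretory pathway, was higher at 208 ± 7.6 and 332.6 ± 7.8 CPM (log2 fold change 0.68, SE 0.03, adjusted p 3.71e-09, edgeR's quasi-likelihood test). Loxl2, which crosslinks type IV collagen, was lower at 298.3 ± 10.3 and 197.1 ± 5.69 CPM (log2 fold change -0.60, SE 0.03, adjusted p 1.36e-08, edgeR's quasi-likelihood test). The Loxl2 change lay at the fold limit, and it was no longer called when the WT-labelled library of replicate number 1 (-0.57) or that labelled KO of replicate number 3 (-0.57) was left out, or under upper-quartile scaling (-0.54) or with total counts only (-0.56). Serpinh1, the collagen chaperone, at 1402 and 1439 CPM, and Pxdn, which forms the sulfilimine bonds between trimers, at 226.5 and 217.5 CPM, were not called, and were named after their values were seen.

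Partners of type IV collagen in the basement membrane were called in both directions, more of them higher under the fold limit. Of 25 listed genes 22 were tested, 9 were higher and 2 lower, or 50% beside 17.7% of all genes tested (11.6% higher and 6.1% lower), with a median log2 fold change of 0.10. Without the fold limit 19 passed, 11 higher and 8 lower, where 58.7% of all genes tested passed. Lamc3, Col15a1 and Smoc1, among those higher, had 10 counts or fewer in each WT-labelled library. They passed the count filter only through KO-labelled libraries, and were named after their values were seen. With at least 10 counts in every library, 6 partners were higher and 2 lower. Frem1, of the complex that anchors epithelial basement membranes, had 25, 18 and 20 counts in WT-labelled libraries and 378, 441 and 425 in KO-labelled libraries (log2 fold change 4.11, SE 0.15, adjusted p 2.13e-10, edgeR's quasi-likelihood test). Lamb3, a chain of the laminin of epithelial attachment, was at 2.00 ± 0.0502 and 30.9 ± 1.45 CPM, also higher (log2 fold change 3.94). Agrn, a heparan sulfate proteoglycan, was lower at 112.8 ± 7.26 and 65.2 ± 1.13 CPM, and Lama4, a laminin chain of vessels, at 3.67 ± 0.582 and 2.27 ± 0.0364 CPM. Lama4 was no longer called without the WT-labelled library of replicate number 1 (log2 fold change -0.57). Of the nidogens, which link laminin to type IV collagen, Nid2 rose from 339.9 ± 8.79 to 793.1 ± 45.1 CPM, while Nid1, at 942 and 688.6 CPM, passed the p limit but not the fold limit. The nidogens were named after their values were seen.

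Receptors and enzymes that handle the network were mixed. Of 12 collagen receptors all were tested, and 3 were higher and 1 lower, or 33.3% beside 17.7% of all genes tested, with a median log2 fold change of 0.10. Itga11, an integrin subunit for fibrillar collagens, went from 18.3 ± 0.789 to 225.6 ± 3.19 CPM, and Itgav, of the integrins that bind arginine-glycine-aspartate sites, from 269.9 ± 0.914 to 640.7 ± 13.5 CPM, while its partner Itgb3 was lower at 43.8 ± 1.77 and 25.1 ± 0.93 CPM. Itga2, at 0.629 and 1.03 CPM and named after its values were seen, was no longer called without the WT-labelled library of replicate number 1 (adjusted p 0.0586) or the KO-labelled library of replicate number 2 (0.0631) or 3 (0.0675), in edgeR's quasi-likelihood test, or in DESeq2 (adjusted p 0.0805). Of 14 genes for breakdown 11 were tested, 1 higher and 2 lower, or 27.3%, with a median of -0.19. Timp3, an inhibitor of metalloproteinases bound to matrix, was higher at 2634 ± 31.3 and 3968 ± 23.2 CPM, though under the fold limit without the WT-labelled library of replicate number 3 (log2 fold change 0.58), and Mmp3, a metalloproteinase, was lower at 8.97 ± 1.08 and 4.56 ± 0.346 CPM.

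Among 38 other collagen genes 27 were tested, 7 higher and 4 lower, or 40.7% beside 17.7% of all genes tested, with a median log2 fold change of 0.07. Col10a1, Col11a1, Col15a1 and Col17a1, among those higher, had 7 counts or fewer in each WT-labelled library. They passed the count filter only through KO-labelled libraries, and were named after their values were seen. With at least 10 counts in every library, 3 other collagen genes were higher and 4 lower. Col5a3, a chain of a fibril-regulating collagen, rose from 19.4 ± 0.637 to 54.0 ± 1.56 CPM, and Col18a1, the basement membrane collagen that is the source of endostatin, from 16.4 ± 0.659 to 31.1 ± 1.00 CPM. Col14a1, a collagen on the surface of fibrils, fell from 14.9 ± 0.799 to 0.596 ± 0.291 CPM, and Col8a1, of a short-chain network collagen, from 716.7 ± 17.3 to 202.1 ± 3.77 CPM. Col18a1 and Col15a1 were also in the list of basement membrane partners. The plot of the lists shows that called genes lay to the right more than to the left among basement membrane partners.

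**Figure D5:**
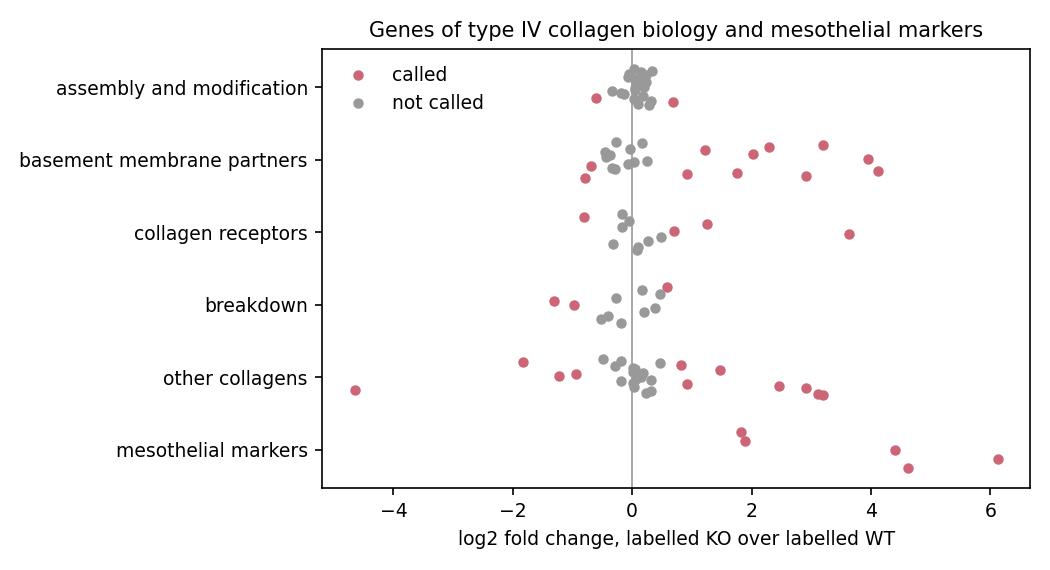
Log2 fold change of every tested gene of 5 lists of type IV collagen biology and of the mesothelial markers, with genes called in red and others in grey. Genes for assembly and modification cluster near 0, all 5 mesothelial markers lie to the right of 1.8, and the other lists reach both ways.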

How the data were processed

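The 6 RNAseq libraries, 3 for each genotype label (WT and Gli2/Gli3 KO), were grouped by the sample labels alone, and no library was moved although Gli2 and Gli3 counts go against the labels. The authors deposited raw counts of reads per gene, and a voom table of log2 CPM, used here only in an alternative. The submitters' processing notes name STAR 2.7.2b, featureCounts, limma and GRCm38.p6. The strand setting is not given in the sources used here. Every listed gene had at least 20 counts over the 6 libraries.

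The counts were scaled by TMM, filtered with filterByExpr and tested with the quasi-likelihood F test of edgeR 4.0.16 (R 4.3.3) on 14289 genes, with Benjamini-Hochberg adjustment. The script was tested on simulated data. Levels per length are CPM per kb of the union of exons in GENCODE M21, which 14822 listed genes matched without version. DESeq2 1.42.0 and limma 3.58.1 were alternatives, beside other scalings, filters, fold limits, exon lengths and leaving out each library. At these depths a limit of 3 counts corresponds to at most 0.0957 CPM.

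Named genes were the chain genes, up to 2 called genes a direction from each list that had 100 counts or more in each library of the group where they were higher, genes starting within 500 kb, the 3 nearest profiles and the HH check genes, of which 1 is not reported here. Genes named outside this rule are marked as such. The members and lists were chosen with earlier results of these data known, and replicate numbers follow accession order, so they name a library and pair none.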

Additional observations from a re-analysis of the deposited data

How the results depend on the processing

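The calls of Col4a3, Col4a4 and Col4a6 and their direction held under every alternative in which they were tested. With at least 10 counts in every library Col4a3 and Col4a4 could not be tested, which left 1 chain gene called. Col4a1, not called in any, changed sign around 0, at -0.0010 with RLE scaling, -0.0019 with no filter, -0.0010 in DESeq2, -0.0015 in limma on the deposited log2 values, and from -0.0196 to 0.0256 without single libraries. All genes called were 8391 (58.7% of those tested) with no fold limit and 1456 at 2-fold. Assembly and modification had 1 called under upper-quartile scaling, 1 with total counts only and 1 to 2 without single libraries. It had 15 of 24 with no fold limit and 0 at 2-fold, where a stricter fold can only lower a count. Basement membrane partners had 19 of 22 with no fold limit, receptors 10 of 12 with no fold limit and 2 at 2-fold, and breakdown 9 of 11 and 1. Other collagens had 21 of 27 with no fold limit and 7 with at least 10 counts in every library. With the longest transcript as length, levels were 307.2 (WT) and 307.3 (KO) for Col4a1, 208.3 (KO) for Col4a2, 0.8185 (KO) for Col4a3, 90.8 and 92.05 for Col4a5, and 13.3 and 43.9 for Col4a6, and shares were 48.82% and 47.02%, 34.63% and 31.88% (Col4a2), 14.44% and 14.08% (Col4a5), and 2.115% and 6.714% (Col4a6). Col4a5 in the libraries labelled WT was at 87.27 with total counts only. No paired analysis was possible because the labels carry no replicate numbers. Depth limits Col4a3 and Col4a4 in the libraries labelled WT, where 1 to 6 counts were seen in each.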
